A study of Mus musculus with 2 samples.

Results

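The 5 mouse genes Mir484, Mir320, Mir877, Mir702 and Mir1224 are known for making microRNAs without the nuclear RNase Drosha. They were taken by symbol, through their Ensembl identifiers, from tables of 1973 miRNA genes, and all 5 were found there. The tables come from microRNA sequencing of RNA shorter than 30 nucleotides, carried out on whole stomachs of newborn B6NCrl mice (postnatal day 0, sex not collected). There is 1 group with 2 libraries, each from a different pup of 1 dam, and the labels name no treatment. The data therefore give levels and the spread between littermates, with no contrast between conditions.

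Most microRNAs begin as long transcripts from which Drosha and its partner Dgcr8 cut a hairpin, which Dicer then trims to the mature strand. Mirtrons skip the first cut: a very short intron is spliced out, opened from its lariat and folds directly into a hairpin for Dicer. In the capped-precursor route, best described for Mir320 and Mir484, transcription itself starts and stops at the hairpin, which carries a 5′ cap and leaves the nucleus through Exportin-1. Mir877, Mir1224 and Mir702 are mirtrons.

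The mature sequences show where the mirtrons' ends come from. RefSeq (GRCm38.p6) held 7 mature miRNAs for 4 of the 5 genes, and they are printed 5′ to 3′ with the seed, bases 2 to 8, in capitals.
miR-484 (chr16:14159630-14159651, plus strand): uCAGGCUCaguccccucccgau
miR-877-5p (chr17:35960795-35960814, minus strand): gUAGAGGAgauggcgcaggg
miR-877-3p (chr17:35960731-35960752, minus strand): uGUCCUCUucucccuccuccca
miR-1224-5p (chr16:20604452-20604472, plus strand): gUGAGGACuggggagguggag
miR-1224-3p (chr16:20604516-20604536, plus strand): cCCCACCUcuucucuccucag
miR-702-5p (chr5:136991442-136991462, plus strand): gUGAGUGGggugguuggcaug
miR-702-3p (chr5:136991520-136991541, plus strand): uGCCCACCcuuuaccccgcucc

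All 3 mirtron 5p strands open with GU, the letters of a splice donor, whereas miR-484 opens with U. The 3p strands are rich in pyrimidines, as is the stretch before a splice acceptor. C and U made up 90.9% of miR-877-3p, 85.7% of miR-1224-3p and 81.8% of miR-702-3p, against a median of 50% over 1738 mature mouse miRNAs, of which 3.45% reached at least 80%. Of the 7 seeds, 6 were found in no other mature miRNA of that table. The exception, UGAGUGG of miR-702-5p, also belongs to miR-3102-5p, made from the mirtron gene Mir3102. Its sequence is shown for comparison.
miR-3102-5p (chr7:100882388-100882409, minus strand): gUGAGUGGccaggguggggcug

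The hairpins are printed because 2 of them are whole introns. Capitals mark the first 2 bases of the host intron and, where the hairpin reaches it, the last 2.
Mir877 hairpin (chr17:35960730-35960814, minus strand): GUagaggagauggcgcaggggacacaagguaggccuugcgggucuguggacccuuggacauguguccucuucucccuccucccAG
Mir1224 hairpin (chr16:20604452-20604536, plus strand): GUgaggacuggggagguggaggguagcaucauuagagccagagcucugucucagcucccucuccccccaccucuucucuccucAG
Mir702 hairpin (chr5:136991433-136991541, plus strand): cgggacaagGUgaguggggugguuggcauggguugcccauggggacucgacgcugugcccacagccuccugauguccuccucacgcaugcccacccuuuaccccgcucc

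In GENCODE release M21 the Mir877 hairpin (ENSMUSG00000077931.1) is exactly an 85-nt intron of Abcf1, which encodes an ABC-family ATPase linked to translation initiation. The Mir1224 hairpin (ENSMUSG00000080669.1) is exactly an 85-nt intron of Vwa5b2. The Mir702 hairpin (ENSMUSG00000076240.1) is annotated differently. It begins 9 nt inside the exon before a 102-nt intron of Plod3, a lysyl hydroxylase gene of collagen synthesis, and stops 2 nt short of the intron's end. Its 5p miRNA nevertheless begins at the first base of that intron, which is base 10 of the hairpin.

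**Figure D1:**
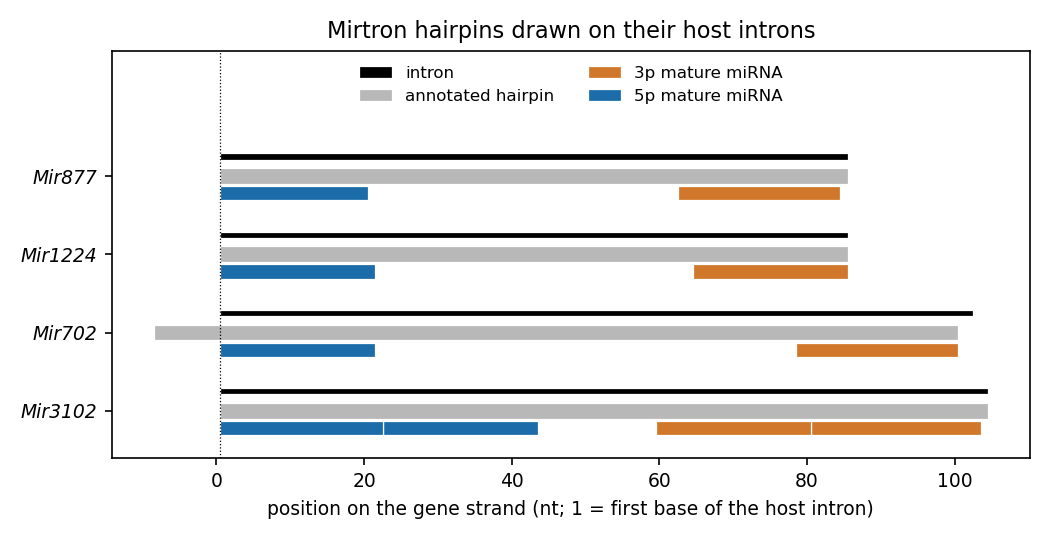
Annotated hairpins and mature miRNAs of Mir877, Mir1224, Mir702 and Mir3102, drawn to scale on the gene strand in nucleotides from the first base of the host intron. In all 4 genes a 5p miRNA starts at the first base of the intron, and the hairpin of Mir702 alone among them begins 9 nt before it.

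The capped pair has no annotated host gene on its own strand, and each hairpin lies just behind the start of a gene that runs the other way. Mir320 (ENSMUSG00000065528.1) occupies 82 nt on the plus strand of chromosome 14, from 70443510 to 70443591 (GRCm38), with a start of Polr3d, a subunit gene of RNA polymerase III, 63 nt upstream on the opposite strand. Mir484 (ENSMUSG00000070074.1) occupies 67 nt on the plus strand of chromosome 16, from 14159626 to 14159692, with a start of Marf1 359 nt upstream on the opposite strand. Such an arrangement was uncommon. Only the nearest opposite-strand start of each gene was counted. Among 1894 annotated genes, that start lay upstream and closer than that of Mir320 in 11 (0.581%), none of them detected here. It lay upstream and closer than that of Mir484 in 28 (1.48%), of which 2 were detected, Mir320 being 1 of them. The nearest same-strand start was that of Nde1, a centrosome gene, 3649 nt downstream of Mir484, and that of Phyhip, 13966 nt downstream of Mir320. No annotated start of another gene on the same strand coincides with either hairpin.

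The tables hold 4463355 own-strand gene reads for pup 1 and 3454655 for pup 2, after 26.0% and 25.7% of all reads had been set aside as mapping to several places. Levels below are CPM, a gene's own-strand reads per 1000000 such reads in its library. Each read is a whole small RNA, so CPM is not divided by length, and no comparison between genes was corrected for how well each small RNA enters a library. A gene counted as detected from 10 counts upward in both libraries, which 305 of 1973 genes (15.5%) passed. The labelled tissue shows in the counts, with Mir143 of smooth muscle at 241858 ± 12311 CPM and Mir203 of squamous forestomach at 95385 ± 1150 CPM (SD, n = 2 pups each), against 1.28 ± 0.231 CPM for Mir217 of pancreas. Of the other markers of other organs, Mir122 of liver stood at 230 ± 35.2 CPM and Mir208b of heart at 88.2 ± 13.6 CPM, and their part in the levels of the 5 genes was not tested. Counts of whole stomach do not tell more cells of a type from more RNA per cell.

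All 5 genes passed the detection minimum, and the capped pair held nearly all of their reads. Together the 5 genes made up 0.208% of own-strand counts in pup 1, with an exact 95% interval of 0.203% to 0.212%. In pup 2 the share was 0.223% (0.218% to 0.228%), giving a mean of 0.215% ± 0.0107 (SD, n = 2). Mir484 and Mir320 accounted for 9111 of 9262 reads in pup 1 and 7509 of 7693 in pup 2. Their sum exceeded that of the 3 mirtrons 60.3-fold in pup 1 and 40.8-fold in pup 2, or by 5.63 ± 0.40 on the log2 scale (SD, n = 2). The median level of the 5 genes was 27.8 CPM, beside 166 CPM over the 305 detected genes.

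Mir484 was the highest of the 5. It had 6860 counts in pup 1 and 5281 in pup 2, or 1537 CPM (exact 95% Poisson interval 1501 to 1574) and 1529 CPM (1488 to 1570). On this scale, set by total counts, the intervals of the pups overlap, and the mean was 1533 ± 5.87 CPM (SD, n = 2). It ranked 67th of the 305 detected genes, 3.21 above their median on the log2 CPM scale.

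Mir320 was the second. Its counts were 2251 in pup 1 and 2228 in pup 2, although the library of pup 1 is the deeper one, so its level was 504 CPM (484 to 526) in pup 1 and 645 CPM (618 to 672) in pup 2. The counting intervals of the pups do not overlap. The mean was 575 ± 99.4 CPM (SD, n = 2), at rank 104 and 1.79 above the detected median on the log2 scale. Mir484 exceeded Mir320 3.05-fold in pup 1, with an exact 95% interval of 2.91 to 3.20, and 2.37-fold in pup 2 (2.26 to 2.49), by 1.43 ± 0.26 on the log2 scale.

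Mir877 led the mirtrons at 84 counts in pup 1 and 127 in pup 2. This corresponds to 18.8 CPM (15.0 to 23.3) in pup 1 and 36.8 CPM (30.6 to 43.7) in pup 2, and the intervals do not overlap. Its mean of 27.8 ± 12.7 CPM placed it at rank 223, and its log2 level relative to the detected median was -2.58. Mir320 exceeded it 26.8-fold in pup 1 and 17.5-fold in pup 2, by 4.44 ± 0.43 on the log2 scale.

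Mir702 had 39 counts in pup 1 and 31 in pup 2, or 8.74 CPM (6.21 to 11.9) and 8.97 CPM (6.10 to 12.7), and ranked 268th with a mean of 8.86 ± 0.167 CPM. Mir1224 had 28 and 26 counts, or 6.27 CPM (4.17 to 9.07) in pup 1 and 7.53 CPM (4.92 to 11.0) in pup 2, and ranked 277th with a mean of 6.90 ± 0.886 CPM. Both genes sat in the lowest stretch of the detected range, and for each the counting intervals of the pups overlap.

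**Figure D2:**
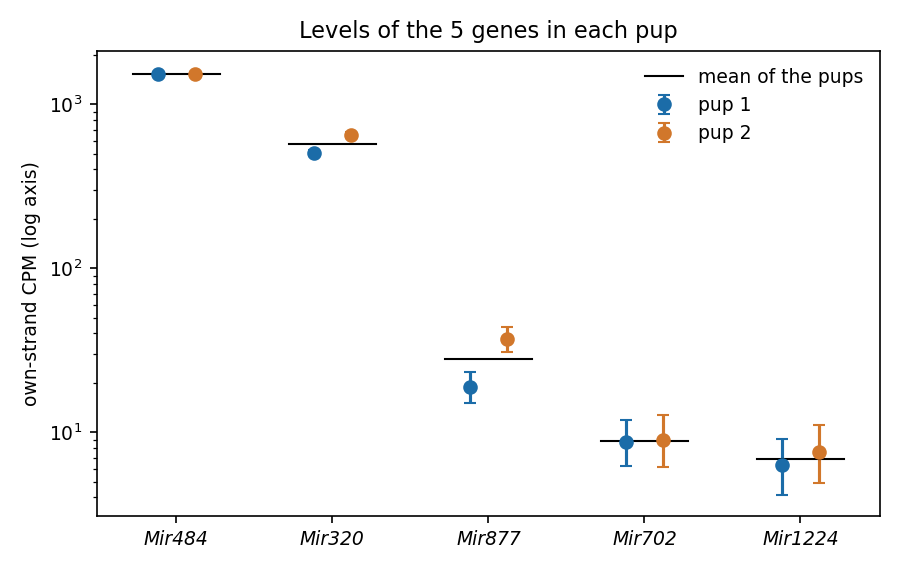
Own-strand CPM (log axis) of the 5 genes in each pup, with exact 95% Poisson intervals, and the mean of the pups as a line. Mir484 and Mir320 lie above 500 CPM in both pups, and the 3 mirtrons lie below 40 CPM.

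The order Mir484, Mir320, Mir877, Mir702, Mir1224 held in each pup. Mir877 exceeded Mir702 2.15-fold in pup 1, with an exact 95% interval of 1.46 to 3.23, and 4.10-fold in pup 2 (2.75 to 6.28), by 1.57 ± 0.66 on the log2 scale. Mir702 and Mir1224 could not be ordered at this depth. Their ratio was 1.39 in pup 1 (0.835 to 2.35) and 1.19 in pup 2 (0.685 to 2.09), so the counting interval includes equality in both libraries, although the mean log2 ratio of 0.37 exceeded its SD of 0.16. An exact permutation test over 2 libraries has a smallest p of 0.5, and the ratios were therefore read against their SD and counting intervals.

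**Figure D3:**
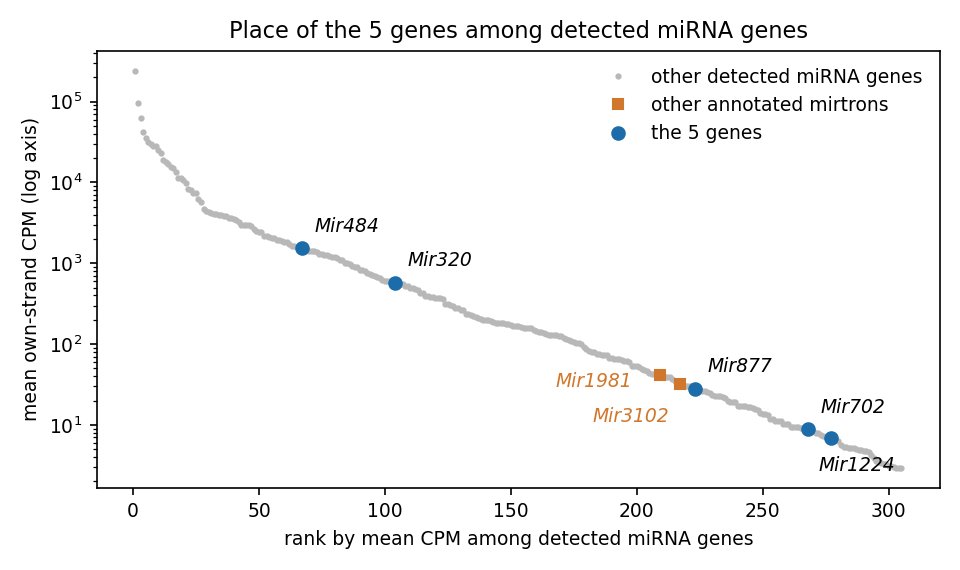
Mean own-strand CPM (log axis) of the 305 detected miRNA genes against their rank, with the 5 genes and the other detected annotated mirtrons marked. The capped pair stands in the upper part of the range, at ranks 67 and 104, and every marked mirtron stands beyond rank 200.

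For scale, the genes nearest to each member in mean level, over 2 libraries, were Mir382 and Mir16-1 for Mir484, and Mir467e and Mir134 for Mir320. For Mir877 they were Mir218-2 and Mir412, for Mir702 Mir34b and Mir8114, and for Mir1224 Mir211 and Mir219a-1. These genes were chosen for being nearest in mean level. That none of these 10 pairs differed by more than the SD of its log2 ratio over the pups follows largely from that choice. Mir16-1, Mir467e, Mir218-2 and Mir219a-1 each have a run of 20 nt or more in common with a different hairpin, and reads of such genes can go uncounted. Mir451a, which needs Drosha but not Dicer, had 92 counts in pup 1 and 67 in pup 2, or 20.6 and 19.4 CPM. In pup 1 Mir451a stood above Mir877 but within the counting interval of Mir877, and in pup 2 it stood between Mir877 and Mir702.

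The mirtrons were also set beside their class, read from gene models and not from counts. A gene was taken as an annotated mirtron where both hairpin ends lay within 5 nt of the ends of 1 intron on the same strand. This held for 23 genes, of which 22 matched the intron exactly, with introns of 67 to 137 nt and a median of 85 nt. Mir877 and Mir1224 are among the 23. Mir702, with its 9-nt overhang, is not, and joins the class only at a tolerance of 10 nt.

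Of the 23, 4 (17.4%) were detected, beside 128 of 720 other intronic genes (17.8%). The 4 were Mir1981, Mir3102, Mir877 and Mir1224. The median of these 4 was 29.9 CPM, against 175 CPM for the other detected intronic genes, a description of few genes without a test. Mir1981, in an intron of the mitochondrial reductase gene Marc2, had the highest mean, with 143 counts in pup 1 and 178 in pup 2 (41.8 ± 13.8 CPM). Mir3102 followed with 149 and 106 counts (33.4 and 30.7 CPM). Mir877 came next by mean and Mir1224 last of the 4. By counts alone the order of the upper 3 differed between the pups, since Mir3102 was the highest in pup 1 and Mir877 exceeded Mir3102 in pup 2. No counting interval was computed for these ratios, so whether the 3 can be ordered at this depth was not tested.

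All 23 together held 0.00993% of own-strand counts in pup 1, with an exact 95% interval of 0.00902% to 0.0109%, and 0.0136% in pup 2 (0.0124% to 0.0149%), beside 32.4% and 33.2% for the other intronic genes. Below the detection minimum, Mir6944 had 17 counts in pup 1 and 8 in pup 2, Mir1982 had 5 and 10, and Mir3547 had 4 and 3. Of the 23, 7 had no count in either library, which allows up to 0.672 CPM in pup 1 and 0.868 CPM in pup 2, for counting error only. Among those 7, Mir6970 and Gm27471 each have a run of 20 nt or more in common with a different hairpin. Reads of these genes can go uncounted, so the limit does not hold for them.

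Mir3102, whose 5p miRNA has the same seed as miR-702-5p, had more reads than Mir702 in both pups. The ratio was 3.82 in pup 1, with an exact 95% interval of 2.67 to 5.58, and 3.42 in pup 2 (2.27 to 5.28), or 1.85 ± 0.11 on the log2 scale. The tables give 1 number per hairpin, so they do not tell its mature miRNAs apart. Besides miR-3102-5p, Mir3102 has miR-3102-5p.2-5p, miR-3102-3p.2-3p and miR-3102-3p, which carry other seeds. The share of the reads of Mir3102 and Mir702 that carries the common seed is unknown.

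**Figure D4:**
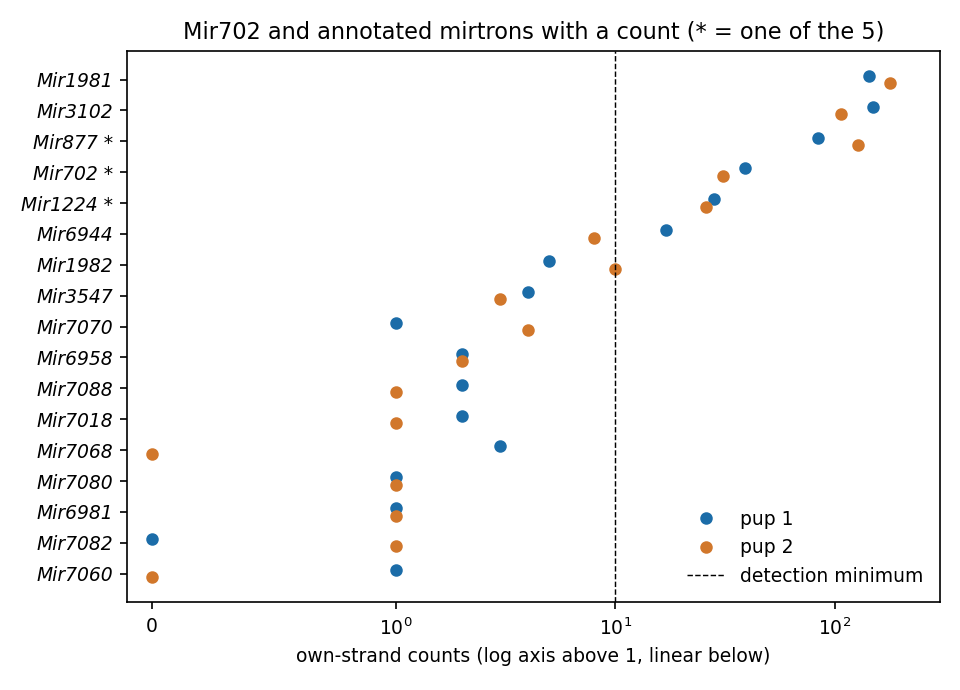
Own-strand counts (log axis above 1, linear below) in pup 1 and pup 2 of Mir702 and of the annotated mirtrons with at least 1 count, ordered by mean CPM. Mir877, Mir702 and Mir1224 stand with Mir1981 and Mir3102 above the minimum of 10 counts in both pups, and the others fall below it in at least 1 pup.

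The hairpin of Mir484 was the shortest and least paired of the 4 with a RefSeq sequence. Over 869 miRNA hairpins of the tables with a RefSeq sequence, the median length was 81 nt, the median share of G and C 52.3%, and the median share of bases paired in the RNAfold minimum free energy structure 69.4%. The Mir484 hairpin, at 67 nt, had 53.7% of its bases paired, a share that 1.27% of hairpins fell below, and 58.2% G and C. The mirtron hairpins were closer to the median in pairing, at 68.2% for Mir1224, 66.1% for Mir702 and 65.9% for Mir877, and had 60.0%, 65.1% and 61.2% G and C. A start with GU together with an end in AG was found in 15 of 17 annotated mirtron hairpins (88.2%), which follows from their definition, and in 15 of 852 others (1.76%). The 5p miRNA began at the first hairpin base in 14 of 17 annotated mirtrons, beside 133 of 794 other hairpins (16.8%), whose median first base was 7. It opened with GUGAG in 7 of the 17, miR-1224-5p among them, against 5 of the 794 (0.63%). Mir702 is outside the annotated class, so miR-702-5p, which has the same start, counts among those 5. Hairpins of the class begin within 5 nt of the first base of an intron by definition. Both contrasts of 5p starts therefore depend in part on how the class was defined.

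Every read of the 5 genes lay on the annotated strand. No count was found on the opposite strand in either pup, and this was also true of 286 of the 305 detected genes (93.8%). For Mir484 the 0 opposite reads allow up to 0.0437% of its own-strand count in pup 1 and 0.0568% in pup 2. For Mir1224 they allow up to 10.7% and 11.5%, since it has few reads. A run of 20 nt or more in common with a different hairpin, found for 919 genes of the tables, was found for none of the 5. Only annotated miRNA genes were searched, so copies elsewhere in the genome were not covered.

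Between the pups, Mir877 was the 1 gene of the 5 that was called. For every detected gene an exact binomial test, two-sided, was run at TMM library sizes, and genes were called at a Benjamini-Hochberg adjusted p under 0.05 over 305 genes and a ratio of at least 1.5. This called 9 genes (2.95%), 2 higher (0.656%) and 7 lower (2.3%) in pup 1. The split moved with the scaling, to 1 higher and 15 lower by total counts and to 4 higher and 6 lower with DESeq2 size factors. Scaled by total counts, the median log2 ratio of pup 1 over pup 2 among detected genes was -0.13, and TMM scaling leaves -0.02.

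The log2 ratio of pup 1 over pup 2 for Mir877 was -0.86 (exact 95% interval -1.28 to -0.45; adjusted p = 7.4e-05, exact binomial test), which is 1.82-fold lower in pup 1. The binomial error is that of counting reads, and the test sets 1 library against the other. An alternative error was edgeR's common dispersion, a coefficient of variation of 11.4% between the pups. It was estimated from the same 2 libraries that are compared, so their differences enter the error and make a call less likely. With it, edgeR's exact test gave 1 gene of the 305 (0.328%) an adjusted p under 0.05 and 16 (5.25%) an unadjusted one. Mir877 was among the latter number (unadjusted p = 0.0058, edgeR exact test) but not called (adjusted p = 0.69). Over all alternatives tried its adjusted p ranged from 5.3e-06 to 0.69.

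The log2 ratio of Mir320 was -0.25 (-0.34 to -0.17; adjusted p = 2.3e-08, exact binomial test), and that of Mir484 was 0.11 (0.06 to 0.16; adjusted p = 9.0e-05, exact binomial test). Both passed the test of counting error at TMM sizes and fell short of the 1.5-fold minimum. By total counts the ratio of Mir484 was 0.0078 and did not pass (adjusted p = 0.87, exact binomial test). Such small differences were common, since 159 of the 305 genes (52.1%) had an adjusted p under 0.05 when no minimum ratio was set. With the common dispersion the adjusted p of each was 1.00 after rounding. The ratios of Mir702 (0.06, -0.65 to 0.79) and Mir1224 (-0.16, -0.98 to 0.67) had intervals that reach beyond 1.5-fold in both directions, so at this depth a difference of that size was not detectable. The sign for Mir702 turned with scaling by total counts (-0.04). The median absolute log2 ratio was 0.16 over the 5 genes and 0.17 over the 305.

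**Figure D5:**
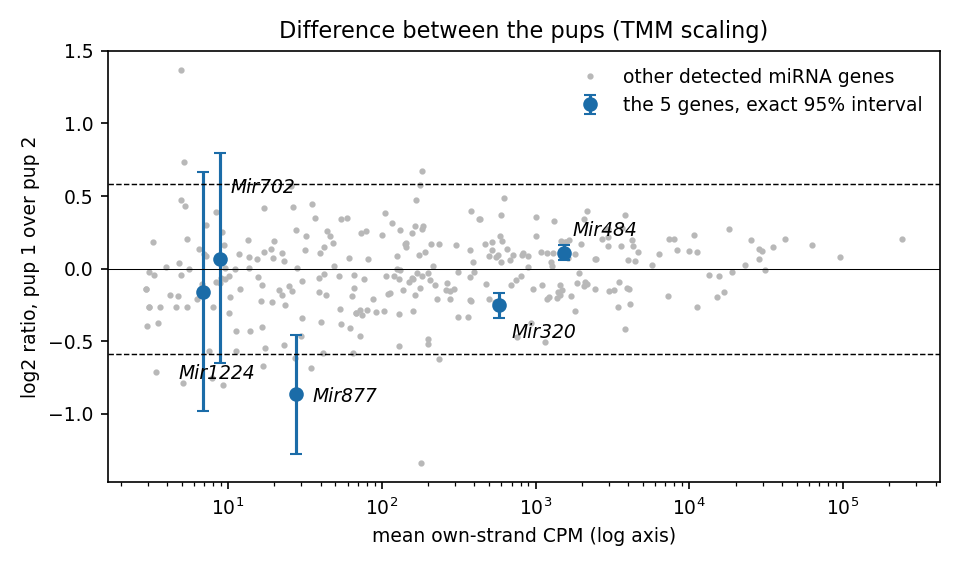
Log2 ratio of pup 1 over pup 2 after TMM scaling against mean own-strand CPM (log axis) for the 305 detected genes, with exact 95% intervals for the 5 genes and dashed lines at a 1.5-fold difference. Mir877 lies at -0.86, beyond the lower line, and the other 4 lie between the lines.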

How the data were processed

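Each library came as a table that the authors deposited, with raw read counts and no normalization: 1 count regardless of strand and 1 for each strand, for 1973 miRNA genes, with the assembly mm10 and annotation release M4 per the description files. For aligner and counter, names were not given in the sources used here. Rows naming no gene were left out; their shares of all reads in pup 1 and pup 2 were 8.70% and 8.94% unmapped, 26.0% and 25.7% mapping to several places, 1.78% and 1.70% outside annotated genes, and 0 ambiguous. The strand column with the larger total, holding 97.7% and 97.8% of gene counts, was used.

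Symbols, introns and transcript starts came from GENCODE M21 (GRCm38), which matched 1894 identifiers; sequences came from RefSeq, GRCm38.p6. The libraries were compared with TMM sizes over detected genes (edgeR 4.0.16, R 4.3.3) and exact binomial tests (scipy 1.17.1). The test was tried on simulated counts with planted differences and counting error only, scaled by totals. That simulation held no spread between pups, so it does not show how often such spread is called. DESeq2 1.42.0 gave alternative size factors, and RNAfold 2.7.2 folded hairpins. The pups are separate littermates, so spreads are those within 1 litter. Intervals and floors (3 counts) cover counting error only, since reads carry no molecular identifiers.

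The genes, comparison lists and tests were chosen with earlier results of these data known. Named besides the 5 genes are the detected genes next to each in level, the 5 highest other annotated mirtrons and genes sharing a seed. Also named are Mir6970 and Gm27471, mirtrons without a count, and the non-canonical genes Mir3102 and Mir451a. Mir1839 and Mir664 were not analysed here. Tissue markers named are Mir143, Mir203, Mir217, Mir122 and Mir208b. Alternatives covered library totals, scaling, count minimum, error model, intron tolerance and leaving out each pup.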

Additional observations from a re-analysis of the deposited data

How the results depend on the processing

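No paired analysis was possible because there is 1 group. The 4 log2 ratios between neighbouring genes in the order kept their direction without either pup (counts of both strands leave them identical, as the 5 genes have no opposite-strand count); the minimum of 50 counts left only Mir484, Mir320 and Mir877 to compare. The share of the 5 genes was 0.284% on a total without the most abundant gene and 0.234% on a total without sequence-sharing genes, against 0.215%, and 0.208% to 0.223% when 1 pup was left out; smaller totals raise it by construction. The number of genes called between the pups was 16 by total counts, 159 with no minimum ratio and 1 with edgeR's common dispersion, against 9, and from 7 to 10 under the other 5 settings. Mir877 lost its call with the common dispersion alone among these settings. The ratio of Mir702, never called, reversed to -0.038 by total counts. Detected mirtrons numbered 13 of 23 at a minimum of 1 count, against 4, because a lower minimum admits more genes. Few reads limit Mir702 and Mir1224, at under 40 counts per library.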
